A study of Mus musculus with 18 samples.

Results

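Naive pluripotency in the mouse is held by a small set of transcription factors, and 7 of them, Esrrb, Nr5a2, Nr0b1, Tfcp2l1, Tbx3, Prdm14 and Zfp42, were followed across 6 kinds of pluripotent stem cell. The 7 genes were taken by name from a list of naive factors, by a rule that sets no threshold on a measured value, although results for them in these samples were already known. They are 7 of the 35773 genes counted by RNA-seq. All 7 are among the 16901 genes tested, those with 10 counts or more in 3 or more samples, although they passed through the groups where they were high and most had only a few counts elsewhere.

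The study compared 18 samples, 3 in each of 6 groups, all labelled as wild type cells of strain 129S2/SvPasCrl. ESCs were naive embryonic stem cells grown with inhibitors of MEK and GSK3 and the cytokine LIF (2i/LIF). ASCs were advanced pluripotent stem cells that came from AFSCs moved to ABCL medium, which is N2B27 with activin A, BMP4, the GSK3 inhibitor CHIR and LIF. AFSCs were primed cells grown from blastocysts in N2B27 with activin A and bFGF. EpiLCs were epiblast-like cells, EpiSCs were epiblast stem cells, and ESC-ASCs were 2i/LIF ESCs converted to ASCs by growth in ABCL. ASCs and ESC-ASCs therefore shared a medium but differed in the cells they came from. The study's methods describe reporter transgenes and fathers of mixed strain background for its derived lines and say that ASCs grew out as surviving clones. The labels give neither a line nor a clone nor a sex for any sample, so p-values measure only the spread between these samples, which may be technical.

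Naive cells depend on LIF, which acts through STAT3, and on relief of the repressor TCF7L1 when GSK3 is inhibited. Both inputs end on the genes described here. ESRRB and NR5A2 are orphan nuclear receptors that bind DNA and activate pluripotency genes, and NR0B1 (DAX1) is an orphan receptor without a DNA-binding domain that acts through partners, NR5A2 among them. TFCP2L1 is a grainyhead-family factor downstream of STAT3 and TBX3 is a T-box factor downstream of LIF. PRDM14 represses genes of DNA methylation and FGF signalling, and ZFP42 (REX1) is the zinc finger protein most used as a marker of the naive state. All are known to be switched off on the way to the primed epiblast.

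RefSeq starts on GRCm38.p6 were found for 5 of the 7 genes, Esrrb, Tfcp2l1, Nr0b1, Nr5a2 and Zfp42, with 7 starts in all. Of these, 4 windows are given as the 250 bases before the start that lies nearest to the gene's 5′ end in the count files, because these genes either stay high in ESC-ASCs (Esrrb and Tfcp2l1) or kept the largest share of their ESC level in EpiLCs (Zfp42 and Nr0b1). Capitals mark matches, on either strand, to the octamer ATTTGCAT bound by POU factors, to the orphan receptor element AAGGTCA, to the STAT element TTCCNGGAA, to the GC box GGGCGG and to the TCF core CTTTGA.
Zfp42, chr8:43307010-43307259, minus strand: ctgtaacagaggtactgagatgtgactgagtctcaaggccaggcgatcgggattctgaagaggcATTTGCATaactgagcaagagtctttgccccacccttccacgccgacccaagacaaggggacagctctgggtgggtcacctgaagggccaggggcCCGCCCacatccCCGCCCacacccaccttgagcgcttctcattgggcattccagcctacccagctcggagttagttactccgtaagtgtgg
Nr0b1, chrX:86191525-86191774, plus strand: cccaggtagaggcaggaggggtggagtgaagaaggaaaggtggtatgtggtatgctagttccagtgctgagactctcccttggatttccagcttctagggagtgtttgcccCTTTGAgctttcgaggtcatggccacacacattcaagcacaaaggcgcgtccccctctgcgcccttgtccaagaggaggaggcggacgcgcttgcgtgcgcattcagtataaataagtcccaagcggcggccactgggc
Esrrb, chr12:86360867-86361116, plus strand: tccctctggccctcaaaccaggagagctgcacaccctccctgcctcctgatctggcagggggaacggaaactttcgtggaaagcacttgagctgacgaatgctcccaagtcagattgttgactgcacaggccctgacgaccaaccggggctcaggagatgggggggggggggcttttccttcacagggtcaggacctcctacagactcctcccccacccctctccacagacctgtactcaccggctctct
Tfcp2l1, chr1:118627695-118627944, plus strand: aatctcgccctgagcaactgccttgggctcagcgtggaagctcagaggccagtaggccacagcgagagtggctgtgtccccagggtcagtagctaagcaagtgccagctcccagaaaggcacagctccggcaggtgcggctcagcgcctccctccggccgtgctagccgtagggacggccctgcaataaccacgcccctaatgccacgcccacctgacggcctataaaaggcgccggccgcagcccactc

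The Zfp42 window held an octamer 186 to 179 bases before the start and a pair of GC boxes. An octamer was present in 1.6% of all 32851 windows of this length in the table, and a GC box in 32.7%. The Nr0b1 window held a TCF core 139 to 134 bases before the start, a match found in 13.8% of windows. Neither Esrrb start, neither Nr5a2 start and not the Tfcp2l1 start held any of the 5 motifs, of which the orphan receptor element was in 4.08% and the STAT element in 0.913% of windows. A match is a run of letters and not a bound site, and its absence says only that the letters are not in the window.

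Total counts per sample were 4961934 to 9906473 outside the ESC-ASCs and 17813619 to 18071600 in ESC-ASCs. The ESC-ASCs were also counted in a separate run by the authors. This run, the higher total counts and the ESC-ASC group cannot be told apart. Replicate 1 of ASCs, AFSCs, EpiLCs and ESCs stood apart from its group: a chi-square of counts per degree of freedom was 21.5 to 100 for pairs with replicate 1 and 1.65 to 11.8 for the pair of other samples. Results between the groups with high levels are therefore given with and without these 4 samples where the call differs. Replicate 2 stood apart by less in EpiSCs (11.3 and 10.1 for its pairs, 1.96 for the other pair). The same held in ESC-ASCs (6.9 and 8.0 for its pairs, 2.5 for the other pair). Both were kept when the 4 samples were left out. No samples were identical. The core pluripotency factors Pou5f1, Sox2, Sall4, Utf1, Lin28a and Tdgf1 were counted in every sample, with a summed level of 8695 to 13740. Pou5f1 was the largest part of this sum, with group means of 4853 to 8089. Single factors were less even, and Sox2 was at 76.1 in EpiSCs and 2329 in ESCs. The summed level of 6 endoderm markers was 217 to 232 in EpiSCs and 86.8 to 108 in AFSCs against 8 to 25.2 elsewhere, and all 6 were counted in every sample of EpiSCs, ASCs and ESC-ASCs. In AFSCs nearly all of that sum was Foxa2 (mean 90.5), while Gata4 was at 0.407 there and at 5.03 in ESCs. In EpiSCs Foxa2 was at 153, Sox17 at 34.6, Gata6 at 26.5 and Gata4 at 1.53. The sum of 6 trophoblast markers was 1180 to 1438 in AFSCs, 361 to 409 in ASCs and 84.2 to 226 elsewhere. In AFSCs it was almost wholly the keratin Krt8 (mean 1291), whereas Cdx2 was at 2.19 in AFSCs and 94.9 in ESCs, Tfap2a at 1.02 and 58.6, Gata3 at 1.98 and 5.03, and Elf5 at most at 0.203 in any group mean. The sum of 4 fibroblast markers was 23.9 to 130.2 over all samples. In bulk RNA a smaller share of expressing cells and less RNA per cell cannot be told apart, and the part of these markers in the values below was not tested.

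Levels are normalised counts per kb of exon, which allows genes to be compared, and errors are SD over 3 samples. Each of the 7 genes was higher in ESCs, ASCs and ESC-ASCs than in the EpiLC, AFSC and EpiSC samples, and for none of them did a sample of the first 3 groups overlap with a sample of the last 3. The share of all genes without such overlap was not counted, here or in the comparisons below. The direction of several of these genes was reported by the study from these same samples, so it is not independent evidence.

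**Figure D1:**
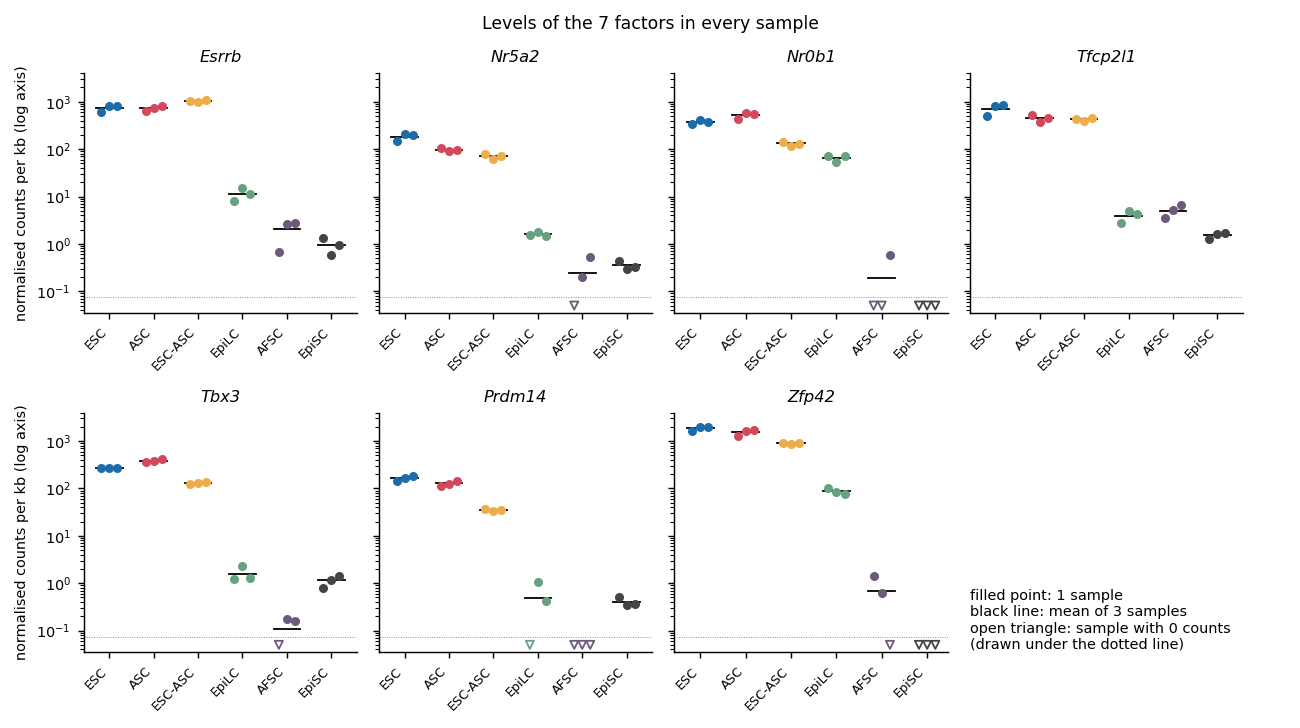
Level of each of the 7 factors in every sample (log axis, normalised counts per kb), with the mean of 3 samples as a line and samples with 0 counts as open triangles. Each gene is high in ESCs, ASCs and ESC-ASCs, and in EpiLCs only Zfp42 (mean 88.2) and Nr0b1 (mean 65.9) stay far above the other 5.

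The orphan nuclear receptor Esrrb (ENSMUSG00000021255, chr12:86361117-86521628, plus strand, GRCm38) had levels of 596, 802 and 806 in ESCs, 631, 747 and 813 in ASCs and 1057, 976 and 1087 in ESC-ASCs. Its lowest ESC-ASC sample lay above the highest sample of ESCs and of ASCs, while ESCs and ASCs overlapped almost entirely. It fell to 8.22, 14.8 and 11.5 in EpiLCs, 0.668, 2.68 and 2.74 in AFSCs and 1.3, 0.583 and 0.947 in EpiSCs. Esrrb was thus the only one of the 7 whose mean was highest in ESC-ASCs.

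Nr5a2 (LRH-1, ENSMUSG00000026398, chr1:136842571-136960448, minus strand), the receptor that binds regulatory regions of Pou5f1, was at 145, 204 and 201 in ESCs, 107, 93.5 and 94.3 in ASCs and 77.5, 63.2 and 71.8 in ESC-ASCs. These 3 groups stood in order without overlap. In EpiLCs it was at 1.57, 1.8 and 1.45, and AFSC and EpiSC samples held 0 to 3 counts each.

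The receptor without a DNA-binding domain, Nr0b1 (ENSMUSG00000025056, chrX:86191764-86195947, plus strand), was at 333, 412 and 378 in ESCs, 423, 578 and 564 in ASCs and 145, 119 and 131 in ESC-ASCs. Its ASC samples lay above all ESC samples and its ESC-ASC samples below all of them. EpiLCs kept levels of 70.9, 53.8 and 72.8. AFSCs held 1 count in 3 samples and EpiSCs held none.

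Tfcp2l1 (ENSMUSG00000026380, chr1:118627945-118685168, plus strand), a target of LIF signalling, was at 492, 796 and 842 in ESCs, 521, 375 and 453 in ASCs and 432, 397 and 451 in ESC-ASCs. ESC replicate 1 lay within the range of the ASCs and the other ESC samples above it. Levels were 2.82, 4.87 and 4.2 in EpiLCs, 3.57, 5.15 and 6.48 in AFSCs and 1.25, 1.59 and 1.72 in EpiSCs, on 23 to 59 counts per EpiLC or AFSC sample and 9 to 17 per EpiSC sample.

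The T-box gene Tbx3 (ENSMUSG00000018604, chr5:119670669-119684724, plus strand) was at 266, 272 and 267 in ESCs, 362, 383 and 411 in ASCs and 126, 130 and 134 in ESC-ASCs. The 3 groups were wide apart for their spread. EpiLCs had 1.22, 2.27 and 1.29, EpiSCs 0.792, 1.2 and 1.44, and AFSCs 2 counts in all 3 samples together.

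Prdm14 (ENSMUSG00000042414, chr1:13113457-13127163, minus strand), a PR-domain repressor also needed for germ cells, was at 146, 165 and 181 in ESCs, 115, 126 and 143 in ASCs and 36.1, 33.2 and 35.9 in ESC-ASCs. It had the lowest level of the 7 in ESC-ASCs. No AFSC sample held a count, EpiSC samples held 1 each and EpiLC samples 0, 3 and 1.

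Zfp42 (ENSMUSG00000051176, chr8:43295063-43306980, minus strand) had the highest level of the 7 in ESCs and ASCs, at 1652, 1934 and 1961 in ESCs and 1277, 1625 and 1675 in ASCs. Esrrb was above it in ESC-ASCs, where Zfp42 was at 932, 866 and 899. EpiLCs kept 104, 84.7 and 76.2, AFSCs held 3 counts in all and EpiSCs held none.

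EpiLCs, AFSCs and EpiSCs address how far the naive factors are lost outside the naive state. Against ESCs, all 7 were lower in EpiLCs, where 26.6% of all genes tested were called lower, all 7 in AFSCs (background 30.8%) and all 7 in EpiSCs (background 32%). A gene was called when its adjusted p was below 0.05 in edgeR's quasi-likelihood F test over all genes. Their median log2 fold change was -6.81 in EpiLCs against ESCs, beside 0.06 over all genes tested. For Prdm14 in AFSCs and for Nr0b1 and Zfp42 in EpiSCs every library was at 0, and folds are then lower bounds set by 3 counts over the group. ESCs were at least 367-fold higher than AFSCs for Prdm14, at least 676-fold higher than EpiSCs for Nr0b1 and at least 3473-fold higher for Zfp42. With 2 counts of Tbx3 in AFSCs, the ESC to AFSC ratio was 2290 with a 95% counting interval of 634 to 18920.

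EpiLCs were not uniform over the 7 genes. Nr0b1 stood at 17.6% of its ESC level and Zfp42 at 4.77%, whereas Esrrb was at 1.57% and the other 4 at 0.295% to 0.876%. From ESCs to EpiLCs, Nr0b1 fell by 2.51 ± 0.18 (log2, SE), with an adjusted p of 2e-09 by edgeR. For Zfp42 the log2 fold change was -4.39 ± 0.18, and for Esrrb, Nr5a2, Tbx3, Tfcp2l1 and Prdm14 it was -5.98 ± 0.26, -6.81 ± 0.23, -7.34 ± 0.20, -7.46 ± 0.28 and -8.15 ± 0.31. Differences between genes in this fall were not tested. Of the distance between EpiSCs and ESCs in log2(level + 0.1), Nr0b1 in EpiLCs kept 78.8%, Zfp42 69.0% and Esrrb 36.8%. The remaining genes ranged from -4.5% for Prdm14 to 22.1% for Nr5a2. Nr0b1 and Zfp42 had no count in EpiSCs, so the lower end of their range was set by the 0.1 that was added. The Prdm14 value rested on 4 counts in EpiLCs and 3 in EpiSCs. Its sign was not that of the mean levels, 0.484 in EpiLCs and 0.409 in EpiSCs.

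The 3 groups with low levels differed from each other too. Against EpiLCs, 5 of the 7 were lower in AFSCs (24.4% of all genes were called lower) and 5 in EpiSCs (27%). EpiLCs were at least 162-fold higher than EpiSCs for Zfp42 and at least 115-fold higher for Nr0b1. Tfcp2l1 in AFSCs was not called different from EpiLCs (log2 fold change 0.35 ± 0.28, adjusted p = 0.32 by edgeR), and neither was Prdm14, with 4 counts or fewer in all on either side. In EpiSCs, Tbx3 (log2 fold change -0.49 ± 0.30) and Prdm14 were the factors not called different from EpiLCs.
AFSCs and EpiSCs, both primed, differed in 2 of the 7 factors, where 39.4% of all genes were called either way, 21.6% higher and 17.8% lower in AFSCs. Tfcp2l1 was higher in AFSCs by 1.74 ± 0.32 (log2, adjusted p = 0.00025 by edgeR). Tbx3 was lower in AFSCs, on 2 counts against 23. Esrrb was 1.21 ± 0.48 higher in AFSCs and was not called (adjusted p = 0.053 by edgeR), but without replicate 1 of the 4 groups it was called, at 1.59. For Prdm14, Nr0b1 and Zfp42 both groups had 3 counts or fewer and no fold is given.

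ASCs came from AFSCs moved to ABCL, and the comparison of the pair asks how the naive factors differed after the move. The study's methods report cell death in ABCL and colonies picked for an Oct4 reporter (GOF-GFP). The change of medium and this selection cannot be told apart. All 7 were higher in ASCs than in AFSCs, where 32.8% of all genes were called higher. In each case all 3 ASC samples lay above all 3 AFSC samples, and the share of all genes so separated was not counted. The log2 fold change was 8.40 ± 0.31 for Esrrb, 6.43 ± 0.27 for Tfcp2l1 and 8.42 ± 0.31 for Nr5a2, with adjusted p of 4.4e-13 or less in edgeR's test. Prdm14 was at least 280-fold higher. With 1 to 3 counts in AFSCs, the ratio of ASCs to AFSCs was 3278 for Tbx3 (95% counting interval 907 to 27070), 2461 for Zfp42 (842 to 11940) and 2428 for Nr0b1 (435 to 95940). The median of the 7 was 10.85 on the log2 scale, or 8.42 with Prdm14 at its bound, against 0.02 for all genes tested. Over the 641 X-linked genes tested the median log2 fold change was 0.85. ASCs were also higher for all 7 than EpiLCs (31.4% of all genes were called higher) and EpiSCs (35.9%).

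Whether ASCs return to the ESC level was asked next, and their means ran from 53.6% to 143% of it. Of the 7, 2 were called higher in ASCs (26.4% of all genes were) and 2 lower (23.9% of all genes), a share near that of all genes, of which 50.3% were called either way. Tbx3 was higher by 0.50 ± 0.13 on the log2 scale (adjusted p = 0.0037 by edgeR) and its groups did not overlap. Nr0b1 was higher by 0.45 ± 0.16 (adjusted p = 0.026 by edgeR), a call lost in 4 of 6 fits that left out a sample of either group. X-linked genes as a group had a median of 1.03 in the same comparison, against -0.004 for autosomal genes, so Nr0b1 rose by less than the typical X-linked gene, and the part of this shift in its rise was not tested.
Nr5a2 was lower in ASCs by a log2 fold change of -0.93 ± 0.16, 53.6% of the ESC level (adjusted p = 7.9e-05 by edgeR), without overlap. Tfcp2l1 was lower, at -0.68 ± 0.20 (adjusted p = 0.0089 by edgeR), but its samples overlapped through ESC replicate 1, and the call was lost in a fit of the 2 groups alone (adjusted p = 0.067) and without ESC replicate 3 (adjusted p = 0.052).
Esrrb did not differ detectably between ASCs and ESCs, with a log2 difference of -0.03 and a 95% interval of -0.45 to 0.39. Zfp42 had a log2 fold change of -0.30 (95% interval -0.63 to 0.03), and Prdm14 one of -0.39 (-0.74 to -0.04, adjusted p = 0.060 by edgeR). Without replicate 1 of ASCs, AFSCs, EpiLCs and ESCs, 6 of the 7 were called, Prdm14 at -0.36 and Zfp42 at -0.23 among them, and the lower Tfcp2l1 was at -0.98. The share of all genes called in that fit was not counted, so this number cannot be set beside a background. No factor differed by more than 1 on the log2 scale in the fit of all samples.

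**Figure D2:**
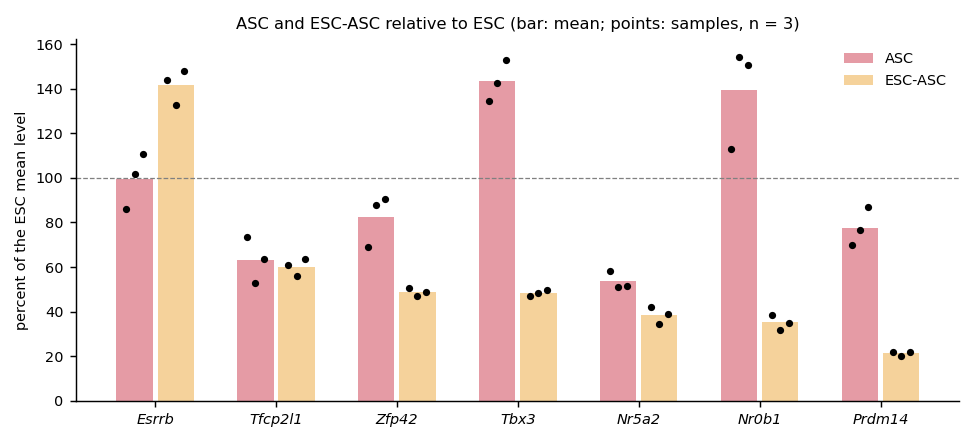
Level of each factor in ASCs and ESC-ASCs as a percent of its mean in ESCs (dashed line), with bars for the mean and points for the 3 samples. ASCs run from 53.6% for Nr5a2 to 143% for Tbx3, and ESC-ASCs from 21.4% for Prdm14 to 142% for Esrrb.

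ESC-ASCs ask what ABCL medium does to naive cells, since these were ESCs before the change. The study converted 2 ESC lines. The labels do not say which was sequenced, although the ESC-ASC count columns are headed mSQ, which resembles the name of 1 of them. The line of the ESC samples is not labelled either, so a line difference and the change of medium cannot be told apart. Of the 7 factors, 6 were lower in ESC-ASCs than in ESCs, where 29.6% of all genes were called lower, and 1, Esrrb, was higher (30.6% of all genes). Prdm14 fell the most, with a log2 fold change of -2.24 ± 0.17 and 21.4% of the ESC level left (adjusted p = 9.5e-09 by edgeR). Nr0b1 fell by 1.53 ± 0.16 on the log2 scale to 35.1%, and the median over X-linked genes in this comparison was 0.05. Nr5a2 fell to 38.6% of the ESC level, Tbx3 to 48.4%, Zfp42 to 48.6% and Tfcp2l1 to 60.1%. For each of these 6 genes all ESC-ASC samples lay below all ESC samples, a separation whose share over all genes was not counted.
Esrrb was at 142% of its ESC level, a log2 difference of 0.48 ± 0.20 (adjusted p = 0.045 by edgeR). Its call was lost in each of the 6 fits that left out a sample of either group, with adjusted p of 0.050 to 0.16, and when ESC-ASC counts were thinned to the depth of the other samples (0.056). It held without replicate 1 of the 4 groups, at 0.37.

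ESC-ASCs and ASCs shared a medium and differed in starting cells, in total counts per sample and in counting run, and these cannot be told apart. Against ASCs, ESC-ASCs were lower in 5 of 7 (27.7% of all genes were called lower), higher in Esrrb alone (23% of all genes were called higher) and not called different in Tfcp2l1 (-0.07, 95% interval -0.49 to 0.35). Nr0b1 was lower, at -1.98 ± 0.16 on the log2 scale, where the median over X-linked genes was -0.91 and that over autosomal genes -0.02. Prdm14 was lower, at -1.86 ± 0.17 and Tbx3 at -1.56 ± 0.13, both without overlap between samples and with adjusted p of 1.9e-07 or less by edgeR. Zfp42 was lower, at -0.76 ± 0.16 and Nr5a2 at -0.46 ± 0.15, and the latter call was lost without ASC replicate 1 and without ESC-ASC replicate 2. Esrrb was higher by 0.52 ± 0.20 (adjusted p = 0.039 by edgeR), a call lost in 5 of 6 fits that left out a sample.
ESC-ASCs nevertheless stayed on the naive side for every factor: all 7 were higher than in EpiLCs (31.9% of all genes were called higher), in AFSCs (35.3%) and in EpiSCs (38.2%). The smallest of these differences was Nr0b1 against EpiLCs, 0.98 ± 0.17 on the log2 scale (adjusted p = 9.2e-05 by edgeR).

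**Figure D3:**
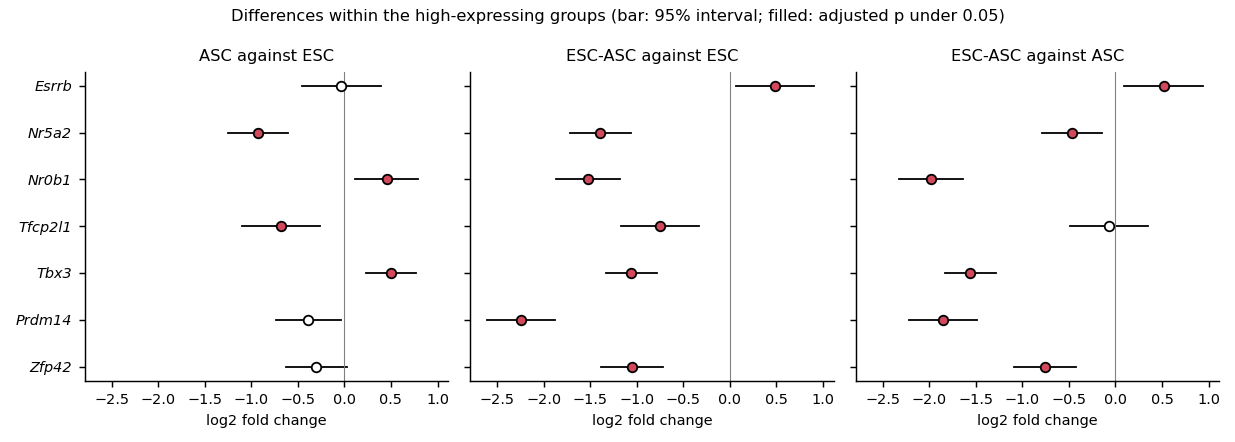
Log2 fold change of each factor between ESCs, ASCs and ESC-ASCs, with the 95% interval as a bar and filled points where the adjusted p was below 0.05. Prdm14 and Nr0b1 lie farthest below 0 in the comparisons of ESC-ASCs (-2.24 and -1.98), and Esrrb is the only factor above 0 in both.

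The factors sit downstream of LIF and Wnt signalling. Of 14 genes of LIF and Wnt signalling and their feedback, 5 were higher and 5 lower in ESC-ASCs than in ESCs, shares near those of all genes (30.6% and 29.6%), and their median log2 fold change was -0.11 beside 0.03 over all genes. Socs3, the feedback inhibitor induced by STAT3, rose by 1.37 ± 0.14. The Wnt targets Sp5 and Axin2 fell by 5.09 ± 0.22 and 2.41 ± 0.17, and Tcf7l1, the TCF repressor that GSK3 inhibition relieves, fell by 3.09 ± 0.18. Not all genes of both pathways shared these directions. On the Wnt side, mean levels in ESCs and ESC-ASCs were 2.56 and 4.63 for Nkd1 and 20.2 and 26 for Lef1. On the LIF side, Pim1 was at 919 and 591, while Pim3 was at 557 and 960. Against ASCs, Socs3 and Stat3 were higher in ESC-ASCs by 2.03 ± 0.14 and 1.49 ± 0.19, and Sp5 was lower, at -2.73 ± 0.21. In ASCs against AFSCs 8 of the 14 were higher (32.8% of all genes) and 2 lower (31.2% of all genes), with the LIF receptor Lifr higher by 4.06 ± 0.26.
Exit regulators, the genes that drive or permit departure from the naive state, had 4 of 11 genes higher and 4 lower in ESC-ASCs than in ESCs, again near the 30.6% and 29.6% of all genes. Foxd3, a forkhead repressor of pluripotent cells, had a level of 170 ± 2.79 (SD) in ESCs, 184 ± 29 in ASCs and 17.7 ± 1.66 in ESC-ASCs, and fell by 3.28 ± 0.15 (log2, SE) against ESCs. Fnip1, a partner of folliculin, rose by 1.40 ± 0.21 and Rbpj, the effector of Notch signalling, by 1.05 ± 0.19.

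Of 16 other genes of the naive network, 15 were higher in ASCs than in AFSCs and none lower, where 32.8% and 31.2% of all genes were. Dppa5a, an RNA-binding protein of naive cells, was higher by 9.93 ± 0.29 and the threonine dehydrogenase Tdh by 7.08, and Tcl1, a coactivator of AKT, was at 407 ± 82.2 (SD) in ASCs and at 0 in all AFSC and EpiSC samples. The gene that was not called was Tfe3 (0.15 ± 0.11). ASCs were lower than ESCs in 8 of the 16 (23.9% of all genes) and higher in 1, Klf4 (0.30 ± 0.12, adjusted p = 0.0497 by edgeR), though only 5 of the 16 were called in a fit of the 2 groups alone. The lowest value was that of Dppa3 (Stella), a maternal factor that guards against DNA demethylation in the zygote, at -3.29 ± 0.28, and Klf2, Tdh and Sall4 were at -0.84, -0.82 and -0.66.
In ESC-ASCs 12 of the 16 were lower than in ESCs (29.6% of all genes) and 1, Stat3, higher by 1.16 ± 0.18, a gene chosen after its value was seen. Dppa3 was at -3.16 ± 0.27, Gbx2 at -1.82 ± 0.21, Gdf3 at -1.74 ± 0.19 and Klf2 at -1.65 ± 0.18, while Klf5, Dppa5a and Spp1 were not called. The median of these 16 was -0.91 in ESC-ASCs and -0.46 in ASCs, against ESCs, and that of the 7 factors -1.06 and -0.30.

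**Figure D4:**
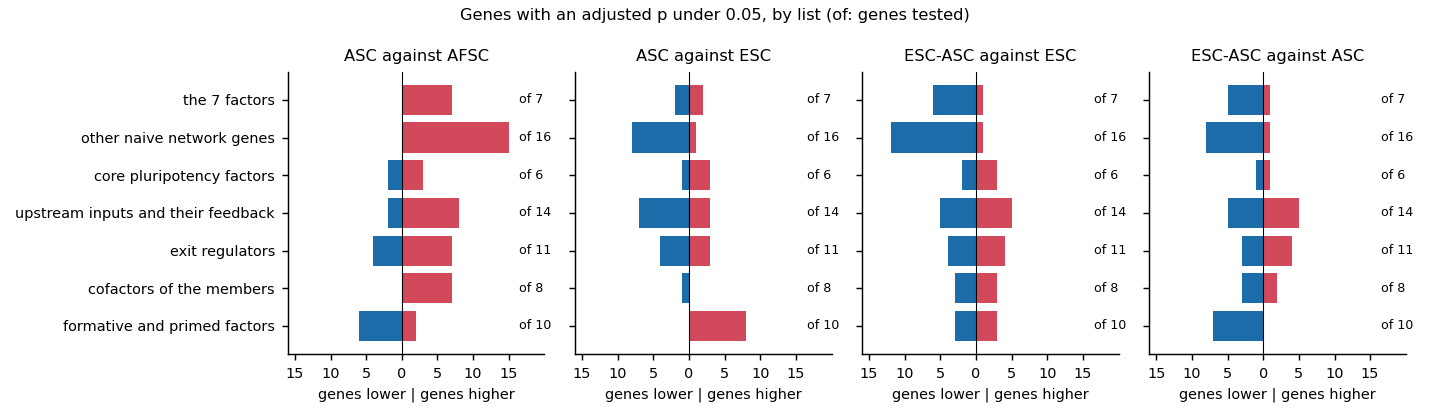
Number of genes called higher (right) and lower (left) in each list for 4 comparisons, with the genes tested beside each bar. In ASCs against AFSCs, 7 of 7 factors and 15 of 16 other naive genes are higher, and formative and primed factors are higher in ASCs than in ESCs for 8 of 10.

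Formative and primed factors mark the cells that leave the naive state. Against ESCs, 8 of 10 were higher in ASCs and none was lower, with a median of 1.40, where 26.4% and 23.9% of all genes were. Sox3 was higher by 3.51 ± 0.24, and Pou3f1 and Tcf15 both by 2.43. Fgf5, the marker of the primed epiblast, was called as well on 5 counts in ASCs against 0 in ESCs, beside 1949 counts in EpiLCs and 5842 in EpiSCs. In ESC-ASCs against ESCs 3 of the 10 were higher and 3 lower (30.6% and 29.6% of all genes), and against ASCs 7 were lower (27.7% of all genes) and none higher, Sox3 and Zic2 at -2.90 and -1.80. So the ESC-ASCs were lower than ASCs both in most naive factors and in most formative ones. Of 6 core pluripotency factors, 3 were higher and 2 lower in ESC-ASCs than in ESCs, and 3 higher and 1 lower in ASCs. Pou5f1, which encodes OCT4, was not called in either comparison (-0.12 ± 0.19 and 0.06 ± 0.19).

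Genes known to be repressed by PRDM14 can be set beside its level. Prdm14 was at 164 ± 17.6 (SD) in ESCs, 128 ± 14.1 in ASCs and 35 ± 1.64 in ESC-ASCs. Over the same groups the DNA methyltransferase Dnmt3b had 176 ± 16.8, 151 ± 16.2 and 252 ± 21.1, its cofactor Dnmt3l 151 ± 41.8, 822 ± 193 and 1043 ± 25.7, and Dnmt3a 7.13 ± 1.05, 38.2 ± 1.01 and 46.6 ± 1.45. Dnmt3b rose in ESC-ASCs by 0.50 ± 0.14 against ESCs and 0.75 ± 0.14 against ASCs. Dnmt3a and Dnmt3l were higher than in ESCs in both groups grown in ABCL and were not called between them, although 4 of the 5 genes of this list were called there, instead of 2, in a fit of the 2 groups alone and without replicate 1 of the 4 groups. The share of all genes called in those fits was not counted. The FGF receptor gene Fgfr1 fell in ESC-ASCs by 0.92 ± 0.15 against ESCs, and Fgfr2 was not called in these 3 comparisons. In AFSCs, which had no Prdm14 count, Dnmt3b was at 1023 ± 132 and Dnmt3l at 2.49 ± 0.20, so these genes did not share a direction.

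Of 8 cofactors of the 7 proteins, 7 were higher in ASCs than in AFSCs (32.8% of all genes), Ncoa3, the coactivator of ESRRB, by 2.50 and Cbfa2t2, the partner of PRDM14, by 1.57. Against ESCs, Ncoa3 was the 1 of 8 called in ASCs, at -0.50 ± 0.12, where 23.9% of all genes were called lower and 50.3% either way. However, 6 of the 8 were called without replicate 1 of the 4 groups and none with the 2 groups alone. No share of all genes was counted for those fits. In ESC-ASCs the Polycomb genes Eed and Ezh2 and the demethylase gene Kdm1a were higher than in ESCs by 0.74, 0.61 and 0.40, and Ncoa3 and Ncor1 were lower, at -0.90 and -0.86.

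Relatives by family, 16 genes of which 11 were tested, had levels of other kinds. The related receptor Esrra was at 125 to 194 in every group mean, and Esrrg, Nr5a1 and Nr0b2 stayed below a mean level of 1 in all 6. Tfcp2 and Ubp1, of the family of Tfcp2l1, ranged from 19.3 to 47.6 and from 222 to 317. Group means of Tbx2 and Tbx5 were at most 3.56 and 0.829, with sample values up to 5.43 and 1.26, and Tbx4 was highest in EpiLCs, at 11.5 ± 1.10 (SD). Yy1 and Yy2, the relatives of Zfp42, had means of 257 to 466 and 18.4 to 50.3. Of the 11 relatives tested, 2 were higher and 2 lower in ASCs than in ESCs, where 26.4% and 23.9% of all genes were.

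Likeness to the 7 across the 18 samples was Pearson's r of log2 levels, and since the samples fall into a high and a low side, r is high for any gene with that split and carries no test. Between the 7 genes themselves r was 0.81 to 0.98, highest for Tbx3 and Prdm14 and lowest for Prdm14 and Nr0b1. Over the 9 samples of ESCs, ASCs and ESC-ASCs alone, which again form 3 groups, r of Esrrb with each of the other 6 was negative, from -0.21 with Tfcp2l1 to -0.78 with Tbx3. Esrrb was most like Cpt1a, which imports fatty acids into mitochondria (0.994), Aqp3 (0.987) and Tcl1 (0.985). Tfcp2l1 was most like Nid1, N4bp1 and Myh13 (0.988 to 0.986), Nr5a2 like Aqp3, Rfx2 and Dlgap3 (0.989 to 0.987), and Tbx3 and Prdm14 both had Tfeb, a lysosomal regulator, among their 3 nearest (0.990 and 0.985).
The genes most like Nr0b1 and Zfp42 were picked over samples that include the EpiLCs, so their EpiLC levels are a description. Rhox13, a homeobox gene that also lies on the X chromosome, was most like Nr0b1 (0.994), and had 63, 113 and 112 in ESCs, 159, 257 and 229 in ASCs, 49.6, 42.9 and 44.8 in ESC-ASCs and 55.4, 41.4 and 51.3 in EpiLCs. Triml2 was also among the nearest of Nr0b1, and Triml1 among those of Zfp42, together with Ooep and 4930417O13Rik (0.983 to 0.982). Triml1 and Triml2, members of the TRIM-like family, lie 154 kb and 101 kb from Zfp42 on chromosome 8 (chr8:43129807-43141486 and chr8:43180541-43193881), and they were the 2 tested genes within 200 kb of it, a window looked at after the likeness was seen.
Triml1 was at 352, 172 and 185 in ESCs, 109, 111 and 108 in ASCs and 33.5, 19.3 and 17.3 in EpiLCs. Triml2 was at 123, 106 and 99.1 in ESCs, 112, 91.7 and 84.9 in ASCs and 27.9, 27.6 and 28.1 in EpiLCs. Neither had a count in any AFSC or EpiSC sample. In ESC-ASCs Triml1 was at 162, above its ASC level, and Zfp42 and Triml2 were below theirs.

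**Figure D5:**
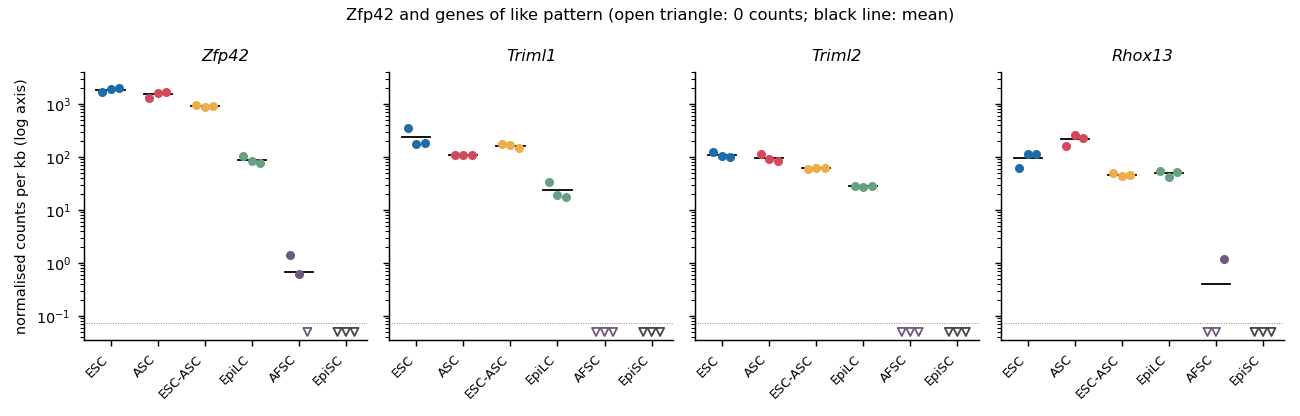
Levels of Zfp42 and of Triml1, Triml2 and Rhox13 in every sample (log axis, normalised counts per kb), with means as lines and samples with 0 counts as open triangles. All 4 hold an intermediate level in EpiLCs, with means of 88.2, 23.4, 27.8 and 49.4, and no EpiSC sample has a count.

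Exons of 2 of the 7 genes overlap other annotated genes, and the counting did not use strand. Tfcp2l1 contains the small gene Gm23497 on its own strand (130 exonic bases, 1.38% of its exons), whose mean level was 1295 to 1630 in the 3 high groups, and fragments there were counted for both genes. Tbx3 shares 115 exonic bases (1.74%) with the antisense gene Tbx3os1, which had at most 105 counts in a sample, so reads of the pair cannot be told apart there, and the shared bases are a small part of Tbx3. Multiply mapped fragments were counted at each place, and only 1 identifier carries each of the 7 symbols.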

How the data were processed

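RNA-seq of 18 samples was used, 3 per label group. The deposited values are raw fragment counts per gene: the authors mapped paired reads of polyA libraries to GRCm38 with TopHat2 and used featureCounts 1.5.0-p1 on the exons annotated in Ensembl 86, without strand. A fragment counted towards each gene sharing 10 or more bases with it, and at each place it mapped. Groups followed the labels, which differ from the names of the tables.

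Of 35773 genes, 16901 passed a minimum of 10 counts in 3 or more samples and were tested. edgeR 4.0.16 (R 4.3.3) was fitted to all samples together with TMM scaling, robust quasi-likelihood F tests and Benjamini-Hochberg adjustment within each of 15 comparisons; SE is the log2 fold change over the root of F. Levels used DESeq2 1.42.0 size factors and length in kb. The 95% intervals of log2 differences come from this fit and cover the spread between samples, whereas 95% intervals of count ratios and bounds from a floor of 3 counts cover counting error only. Total counts of 4961934 to 18071600 limit precision for genes with few counts. In data simulated for ASCs against AFSCs over 16901 genes, 71% of log2 changes of 1 and 99% of changes of 3 were recovered, with 3.95% of calls false. Every simulated gene had the same spread beyond counting error, few genes changed and no replicate stood apart. The real samples differ in each of these points, so the rates need not hold for them.

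The 7 genes and the lists were chosen with earlier results of these data known. Text names the 7 genes, the 3 most correlated genes of each, genes with overlapping exons, family relatives, and from each list up to 4 called genes with the largest change in a comparison and up to 4 not called. Alternatives were other scaling, filters, tests, sets of samples, a replicate block, thinned ESC-ASC counts and omission of each sample. The fit without replicate 1 of 4 groups was chosen after seeing the data. Figures used matplotlib and promoter windows RefSeq GRCm38.p6. Some genes of the lists are counted but not reported here by name.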

Additional observations from a re-analysis of the deposited data

How the results depend on the processing

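In 245 of 250 alternatives the number of the 7 genes called stayed within 1.5 times its value, a wide rule for so few genes. It takes 6 instead of 4 called in ASCs against ESCs without replicate 1 of the 4 groups as unchanged. Where all 7 were called with large folds, the number could hardly move. With a log2 fold change beyond 1 required, 0 instead of 4 were called in ASCs against ESCs and 3 instead of 6 in ESC-ASCs against ASCs. With only the 2 groups compared, 3 instead of 5 were called in AFSCs against EpiLCs and 1 instead of 2 in AFSCs against EpiSCs, where fewer genes passed the filter. Leaving out 1 sample gave 2 to 4 in ASCs against ESCs, the lowest without ESC replicate 3. The sign of Esrrb in ASCs against ESCs, a difference near 0, turned with no low-count filter (0.0032), at least 50 counts (0.00394), the 2 groups alone (0.0331) and no ESC-ASC samples (0.00358), and over left-out samples it ranged from -0.173 to 0.0588. Leaving out samples also turned Tfcp2l1 in ESC-ASCs against ASCs (-0.189 to 0.0534), Prdm14 in EpiSCs against EpiLCs (-0.84 to 0.75) and Nr5a2 in AFSCs against EpiSCs (-1.54 to 0.11). Without replicate 1 of ASCs, AFSCs, EpiLCs and ESCs, a setting chosen after seeing the data, Tfcp2l1 in ESC-ASCs against ASCs was 0.0347 and Nr5a2 in AFSCs against EpiSCs 0.11. None of these was called. The cause was not tested. With a pseudocount of 1, the range kept in EpiLCs was 31.1% for Esrrb, 13.3% for Nr5a2, 70.8% for Nr0b1 and 59.6% for Zfp42. Of 1015 counts over the other lists, 15 moved by more than 1.5 times: without those 4 samples 11 instead of 6 exit regulators were called in EpiLCs against ESCs and 5 instead of 2 core factors in ESC-ASCs against ASCs. Shares of all genes called were counted only for the fit used in the text, so numbers called in the alternatives have no background beside them. The labels tie replicate numbers to no shared culture or day, and r between same-numbered samples was not above 0.1 in every pair (45 pairs, mean 0.12, from -0.33 to 0.62), so the numbers were not taken as pairs. With a replicate block 5 instead of 4 of the 7 were called in ASCs against ESCs (Prdm14 gained, adjusted p = 0.0461), 6 instead of 5 in AFSCs against EpiLCs and 3 instead of 2 in AFSCs against EpiSCs (Esrrb gained, adjusted p = 0.0354).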
